A study of Mus musculus with 12 samples.

Results

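Immunoglobulin genes and the J chain were followed in macrophages sorted from mouse gliomas by uptake of a fluorescent nanoparticle. The genes were chosen by gene symbol after the difference of Jchain between the sorts was known: every row of the count table for a V, D, J or constant segment of the heavy, kappa or lambda chain, with Jchain and Mzb1 added. The choice held 398 of 54532 rows. One of them, Ighmbp2, matched by its letters alone and encodes a DNA helicase, which left 395 immunoglobulin rows, Jchain and Mzb1. No read was counted for 222 rows, and 176 rows had at least 1 count in some library. Of these 176, 68 had a count in a rhodamine-positive library and 161 in a rhodamine-negative library.

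An antibody is built from heavy and light chains, and the B cell assembles the gene of each by joining a V segment to J (and, for the heavy chain, D) segments in front of a constant region. The constant region sets the isotype: Ighm and Ighd encode IgM and IgD, the forms of B cells that have not switched, while the Ighg genes encode IgG and Igha encodes IgA. The light chain is either kappa (Igkc) or lambda (the Iglc genes). Plasma cells secrete antibody and express Jchain, a small protein that joins IgA and IgM units into polymers, together with Mzb1, an endoplasmic reticulum protein that aids immunoglobulin assembly. Rearrangement of these genes is the work of B lymphocytes, and macrophages bind antibody through Fc receptors.

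All 6 mice had the genotype Ntv-a_Ink4a/Arf_KO (4 males and 2 females), carried a glioma, and received rhodamine-labelled perfluoro-crown-ether nanoparticles (Rhodamine_PFCE_NP) by intravenous injection. The tumour was removed 24 h later. From each mouse, cells that were CD45+, CD11b+ and Ly6C- were sorted into a rhodamine-positive and a rhodamine-negative sample of more than 2000 cells each, so that there were 6 libraries in each group, paired by mouse. The gate has no B cell marker, and there were no mice without nanoparticles and no cells from outside the tumour among the samples used here. The age of the mice and the way the tumours were induced are not given in the labels.

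Library totals were 13073189 to 17379314 counts in rhodamine-positive sorts and 13421387 to 16167832 counts in rhodamine-negative sorts. Macrophage markers were abundant in both sorts: the sum of 10 genes that included Csf1r, Cd68 and C1qa was 26910 to 31180 counts per 1000000 scaled counts of the library (CPM) in rhodamine-positive libraries, against 10420 to 25380 CPM in rhodamine-negative libraries. A count of 3, the smallest taken here as a limit of detection, amounted to between 0.177 and 0.239 CPM in a library.

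The ends of the heavy chains show which isotypes can carry a J chain. The secreted forms of IgA and IgM end in a tailpiece whose penultimate residue is a cysteine, through which J chain is bound, and IgG lacks it. The last 54 coding bases of the secreted transcripts, read from GENCODE vM21 (mm10), are shown with that cysteine codon in capitals. Igha (chr12:113258771-113258824, minus strand, exon 3) and Ighm (chr12:113420870-113420923, minus strand, exon 4) both have it, and Ighg2b (chr12:113306392-113306445, minus strand, exon 4) does not.
Igha: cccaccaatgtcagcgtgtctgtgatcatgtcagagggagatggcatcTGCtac
Ighm: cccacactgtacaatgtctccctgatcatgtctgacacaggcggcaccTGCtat
Ighg2b: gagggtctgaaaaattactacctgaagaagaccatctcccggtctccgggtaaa

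The V segments with the most counts were Igkv1-110, Igkv8-30, Igkv1-117 and Ighv1-81, and the last 150 coding bases of each (exon 2) are given because read counting turns on how far they differ. Igkv1-110 (chr6:68271118-68271267, plus strand) and Igkv1-117 (chr6:68121678-68121827, plus strand) differ at 4 of these bases, written in capitals in both. Over the whole coding sequence 349 of 359 bases are the same (97.2%).
Igkv1-110: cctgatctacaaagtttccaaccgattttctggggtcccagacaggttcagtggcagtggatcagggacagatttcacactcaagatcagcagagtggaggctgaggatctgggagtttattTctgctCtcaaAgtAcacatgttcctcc
Igkv1-117: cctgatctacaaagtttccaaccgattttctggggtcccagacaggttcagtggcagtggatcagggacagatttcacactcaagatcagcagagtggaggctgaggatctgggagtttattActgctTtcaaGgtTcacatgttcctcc
Igkv8-30 (chr6:70117061-70117210, minus strand) and Ighv1-81 (chr12:115920279-115920428, minus strand) have in capitals the codon of the conserved cysteine that precedes the third hypervariable loop.
Igkv8-30: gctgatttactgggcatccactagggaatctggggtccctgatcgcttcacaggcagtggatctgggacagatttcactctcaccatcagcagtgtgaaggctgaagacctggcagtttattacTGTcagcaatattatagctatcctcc
Ighv1-81: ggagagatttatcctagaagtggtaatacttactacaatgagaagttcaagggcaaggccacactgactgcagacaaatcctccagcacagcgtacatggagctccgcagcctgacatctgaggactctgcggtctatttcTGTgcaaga
The nearest relatives of these segments were Igkv8-21 for Igkv8-30 (93.5% of aligned coding bases identical) and Ighv1-85 for Ighv1-81 (92.9%). Counts of single V segments are therefore uncertain to the extent that reads were divided between relatives. Reads that cross into the somatically joined or mutated part of an antibody gene may not align to the reference at all.

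The rhodamine-positive sorts held an IgM heavy chain signal with little else, whereas the rhodamine-negative sorts held IgA, kappa, J chain and a set of V segments besides. All 395 immunoglobulin rows together averaged 158 ± 48.2 CPM in rhodamine-positive libraries and 505 ± 234 CPM in rhodamine-negative libraries (SD, n = 6 each), a log2 ratio of -1.68. With Ighm and Ighd left out, the same sum was 8.19 ± 6.22 CPM in rhodamine-positive and 315 ± 222 CPM in rhodamine-negative libraries (SD, n = 6 each), 38.5-fold lower in the rhodamine-positive sorts. The highest rhodamine-positive library had 19.8 CPM on this measure and the lowest rhodamine-negative library had 106 CPM, so the groups did not overlap. In a bulk sort, fewer immunoglobulin-expressing cells and less immunoglobulin RNA per cell cannot be told apart.

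In edgeR's quasi-likelihood test with mouse as a block and Benjamini-Hochberg adjustment over 35308 genes, 6.84% of all genes were called lower in rhodamine-positive sorts and 5.37% were called higher. Of the 176 chosen rows with a count, 34 were called lower and 0 higher at the adjusted threshold of 0.05; 0 were also higher at an unadjusted p under 0.05 and by DESeq2. Among the 173 immunoglobulin rows these counts were 31 and 0, made up of 8 constant region genes, 8 heavy V segments, 13 kappa V segments and 2 lambda V segments, and the other 3 rows called lower were Jchain, Mzb1 and Ighmbp2. Ighmbp2, no immunoglobulin gene, had 62 to 172 counts in rhodamine-positive and 133 to 195 counts in rhodamine-negative libraries, a fitted log2 difference of -0.52. It was not called without the block, by DESeq2 or after the filterByExpr filter on low counts. The median log2 difference, rhodamine-positive minus rhodamine-negative, was -1.52 over the 176 rows, beside -0.32 over all genes tested. Because the difference between the sorts led to the choice of these genes, the counts describe the members and carry no test. Only 10 of the 398 rows passed a usual filter on low counts, so most calls rest on few reads. Of the 31 immunoglobulin genes called lower, 19 had at least 50% of their rhodamine-negative counts in 1 library, and 13 had at least 80%.

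Igha, the constant region of IgA, had 6 to 27 counts in rhodamine-positive libraries (median 13.5), against 725 to 4732 counts in rhodamine-negative libraries (median 1570.5). Every rhodamine-negative library was above every rhodamine-positive one. Its mean was 1.11 ± 0.628 CPM in rhodamine-positive and 121 ± 85.3 CPM in rhodamine-negative sorts (SD, n = 6 each), which is 109-fold lower in the rhodamine-positive sorts. The fitted log2 difference was -6.55 (standard error 0.17, from a variance that edgeR shares across genes and not from the spread among mice alone). Igha lies at chr12:113254830-113260236 on the minus strand of mm10, at the far end of the heavy chain constant cluster.

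Jchain (chr5:88519809-88527891, minus strand) had 0, 7, 0, 0, 0 and 1 counts in the rhodamine-positive libraries of mice 1 to 6, against 311, 143, 80, 259, 301 and 675 counts in their rhodamine-negative libraries. The highest rhodamine-positive count was thus far under the lowest rhodamine-negative count. The mean was 0.0859 ± 0.174 CPM in rhodamine-positive and 18.5 ± 12.1 CPM in rhodamine-negative sorts (SD, n = 6 each), and the fitted log2 difference was -7.40 (standard error 0.32). Mouse 2 supplied nearly all rhodamine-positive counts, and without it the fitted value was -9.79. In the authors' deposited table of log2 values, Jchain stood between -4.86 and -1.04 in rhodamine-positive libraries and between 2.58 and 5.41 in rhodamine-negative libraries. The rhodamine-positive values of mice 1, 3, 4 and 5 stand for a count of 0 and are a floor, not a measured level.

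Mzb1, the assembly factor, had 4 counts in all over the rhodamine-positive libraries and 11 to 140 counts in each rhodamine-negative library. Its mean was 0.0526 ± 0.0816 CPM in rhodamine-positive and 2.85 ± 2.80 CPM in rhodamine-negative sorts (SD, n = 6 each). Mouse 6 had the highest rhodamine-negative value for Mzb1, Jchain and Igha alike.

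Igkc, the kappa constant region (chr6:70726435-70726966, plus strand), had 58, 1, 33, 106, 8 and 8 counts in the rhodamine-positive libraries of mice 1 to 6, against 1718, 372, 495, 1869, 1770 and 4404 counts in their rhodamine-negative libraries. It was lower in the rhodamine-positive sort of all 6 mice, with means of 2.57 ± 2.90 CPM in rhodamine-positive and 111 ± 85.0 CPM in rhodamine-negative sorts (SD, n = 6 each). Mice 1, 3 and 4 had the most Igkc among the rhodamine-positive libraries, and mouse 2 had the least in both sorts.

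Ighm, the IgM constant region (chr12:113418558-113422730, minus strand), differed from these genes. It had 1300 to 2877 counts in rhodamine-positive libraries (median 2022.5), against 1988 to 3759 counts in rhodamine-negative libraries (median 2963.5), and the groups overlapped. The means were 146 ± 47.2 CPM in rhodamine-positive and 186 ± 43.9 CPM in rhodamine-negative sorts (SD, n = 6 each), 1.27-fold lower in the rhodamine-positive sorts. The fitted log2 difference was -0.37 (standard error 0.11), and Ighm was lower in the rhodamine-positive sort of 4 of 6 mice. The median over all genes tested was -0.32, and it was -0.02 over the genes left by a filter on low counts, with which Ighm stood at -0.38. Ighm was among the genes called lower in the fit with the mouse block, and was not called without the block.

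Ighd, the IgD constant region next to Ighm on chromosome 12, had 24 to 94 counts in rhodamine-positive and 24 to 91 counts in rhodamine-negative libraries. Its fitted log2 difference was -0.14 (standard error 0.27), and it was not among the genes called. IgM and IgD are made from one primary transcript, so reads of unspliced RNA in this stretch can belong to either.

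The IgG genes were low throughout. Ighg2b had 0 to 19 counts in rhodamine-positive libraries (median 1.5), against 13 to 319 counts in rhodamine-negative libraries (median 26.5). Its highest rhodamine-positive count, in mouse 6, exceeded the lowest rhodamine-negative count, in mouse 3. Mice 5 and 6, the females, had 193 and 319 Ighg2b counts in their rhodamine-negative libraries, and the 4 males had 13 to 27. Ighg2c had 1 to 15 counts in rhodamine-positive and 3 to 150 counts in rhodamine-negative libraries, with 150 in mouse 4. Ighg1 had 31 counts over the rhodamine-positive and 27 over the rhodamine-negative libraries and was not called. Ighg3 was counted in 1 library, the rhodamine-negative one of mouse 2, with 6 counts, and Ighe, the IgE gene, had none in any library. The coding sequences of Ighg2b and Ighg2c are 87.8% identical, so some of their reads may be shared.

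**Figure D1:**
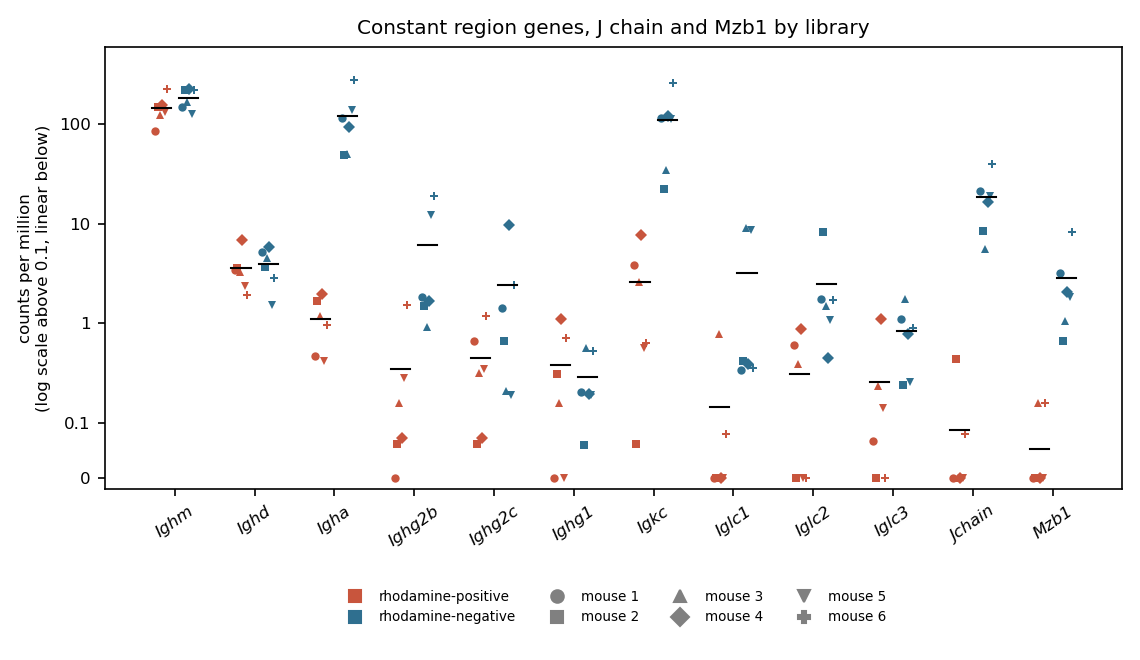
CPM of the constant region genes, Jchain and Mzb1 in each of 12 libraries (vertical axis logarithmic above 0.1 and linear below), with rhodamine-positive sorts left of rhodamine-negative sorts and a bar at each mean. Ighm and Ighd overlap between the sorts, while Igha, Igkc, Jchain and Mzb1 do not.

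Expressed as shares of heavy chain constant counts, Ighm made up 94.0% to 97.5% in rhodamine-positive libraries (mean 96.0 ± 1.34%) and 42.2% to 79.9% in rhodamine-negative libraries (mean 60.6 ± 15.6%; SD, n = 6 each). Igha made up 0.309% to 1.18% in rhodamine-positive libraries and 17.8% to 53.1% in rhodamine-negative libraries. The lowest rhodamine-negative share of Igha, in mouse 2, had an exact 95% interval of 16.7% to 18.9%, and the highest rhodamine-positive share, in mouse 4, one of 0.778% to 1.71%; such intervals cover counting error only. The Ighg genes together made up 0.284% to 1.46% in rhodamine-positive and 0.754% to 4.52% in rhodamine-negative libraries. These shares are of counts that were not divided by gene length, so they compare libraries and not genes.

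Light chain RNA was scarce beside heavy chain RNA in the rhodamine-positive sorts. For every 100 heavy chain constant counts there were 0.121 to 8.73 light chain counts in rhodamine-positive libraries (mean 3.53 ± 3.54), against 16.7 to 69.7 in rhodamine-negative libraries (mean 47.4 ± 20.6; SD, n = 6 each). V segments of the heavy chain gave the same order: 0.121 to 0.742 counts per 100 heavy chain constant counts in rhodamine-positive and 2.61 to 10.01 in rhodamine-negative libraries. Thus the rhodamine-positive library of mouse 2 had 2377 Ighm counts beside 3 heavy V counts and 3 light chain counts. Set against Igha and Ighg counts alone, heavy V counts were 8.82 to 52.9 per 100 in rhodamine-positive and 12.4 to 19.0 per 100 in rhodamine-negative libraries, and the groups overlapped. The first of those ranges rests on 53 heavy V counts in all.

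**Figure D2:**
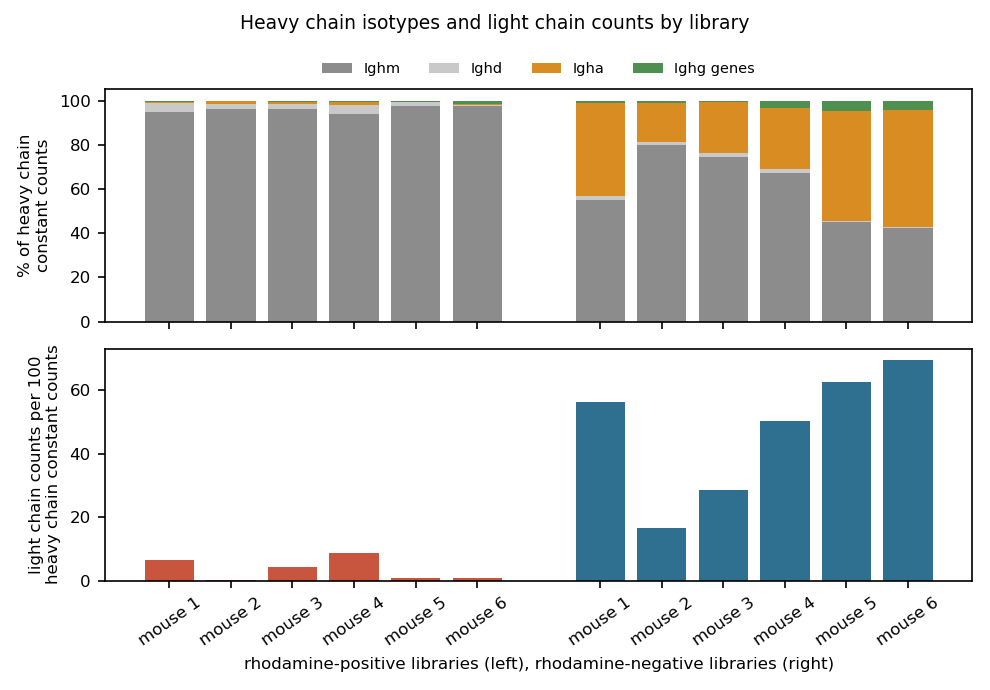
Share of heavy chain constant counts taken by Ighm, Ighd, Igha and the Ighg genes (upper panel, percent) and light chain counts per 100 heavy chain constant counts (lower panel) in each library, rhodamine-positive left and rhodamine-negative right. Ighm is above 93% in every rhodamine-positive bar, and the light chain bars there stay under 10.

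Kappa made up most of the light chain counts, with wide differences among mice. In rhodamine-negative libraries the kappa share was 95.7%, 69.3%, 72.2%, 98.2%, 91.7% and 98.3% in mice 1 to 6 (mean 87.6 ± 13.3%, SD, n = 6). The exact 95% intervals were 65.9% to 72.5% in mouse 2 and 97.99% to 98.64% in mouse 6, and they cover counting error only. In rhodamine-positive libraries the kappa share was 67.1% to 100%, on as few as 3 light chain counts in mouse 2.

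Lambda counts came from different genes in different mice. Iglc1 had 129 and 136 counts in the rhodamine-negative libraries of mice 3 and 5, and 5 to 7 counts in those of the other 4 mice. Iglc2 had 140 counts in the rhodamine-negative library of mouse 2 and 7 to 29 in the other rhodamine-negative libraries. Mouse lambda genes lie in cassettes in which Iglv1 is usually joined to Iglc1 or Iglc3 and Iglv2 to Iglc2. Iglv2 had 75 of its 80 rhodamine-negative counts in mouse 2, as Iglc2 had most of its counts there. Iglv1 had 38, 10, 71, 23, 71 and 47 counts in the rhodamine-negative libraries of mice 1 to 6, highest in mice 3 and 5 but without the wide split of Iglc1. Over the rhodamine-positive libraries, Iglc1, Iglc2 and Iglc3 had 11, 26 and 21 counts. The coding sequences of Iglc2 and Iglc3 are 96.5% identical, which leaves the division between these genes uncertain, and Iglc4 had no count.

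A few V segments held most V counts of a library, and they differed between mice. In rhodamine-negative libraries the most counted heavy V segment was Ighv1-81 in mice 1, 4 and 6, Ighv1-53 in mouse 2, Ighv1-72 in mouse 3 and Ighv3-6 in mouse 5. It held 20.2% to 56.2% of the heavy V counts of its library. The most counted kappa V segment was Igkv1-117 in mouse 1, Igkv1-110 in mice 2 and 6 and Igkv8-30 in mice 3, 4 and 5, with 18.7% to 72.2% of the kappa V counts. The effective number of segments, the inverse of the summed squared shares, was 2.67 to 7.41 for heavy and 1.81 to 8.99 for kappa V segments. The lowest kappa value was that of mouse 2, where Igkv1-110 had 117 of 162 kappa V counts.

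Ighv1-81 had 1, 0, 0, 1, 0 and 0 counts in the rhodamine-positive libraries of mice 1 to 6, against 110, 26, 9, 124, 42 and 304 counts in their rhodamine-negative libraries. Igkv8-30 had 1 count in all over the rhodamine-positive libraries and 56, 1, 79, 176, 200 and 149 counts in the rhodamine-negative libraries of mice 1 to 6. Igkv1-117 had 15 counts in the rhodamine-positive library of mouse 4 and 0 in the other rhodamine-positive ones, against 159, 3, 22, 113, 40 and 293 counts in the rhodamine-negative libraries. Its near copy Igkv1-110 had 3 counts in the rhodamine-positive library of mouse 6 and 0 in the others, against 84, 117, 1, 20, 198 and 317 counts in the rhodamine-negative libraries. The copies did not keep a fixed ratio: the rhodamine-negative library of mouse 2 had 117 Igkv1-110 and 3 Igkv1-117 counts, and that of mouse 3 had 1 and 22.

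Other V segments had nearly all their counts in 1 mouse. Igkv4-80 had 253 of its 254 counts in the rhodamine-negative library of mouse 6, and Igkv5-48 had 141 of 142 rhodamine-negative counts in that of mouse 5. Igkv17-121 had 151 counts in the rhodamine-negative library of mouse 6 and 12 in the rhodamine-positive library of mouse 4. Igkv10-96 was spread more evenly, with 27, 61, 23 and 31 counts in the rhodamine-negative libraries of mice 2, 4, 5 and 6, and 1 count in that of mouse 3. Ighv3-6 had counts in the rhodamine-negative libraries of all mice but mouse 2 and in no rhodamine-positive library. With at least 3 counts required in a rhodamine-negative library, 31 heavy and 42 kappa V segments were seen, of which 22 and 32 were seen in 1 mouse. Ighv1-81 and Igkv1-117 were the heavy and kappa segments seen in all 6 mice, and the lambda segment Iglv1 was seen in all 6 too.

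In rhodamine-positive libraries the few V counts seldom fell on the segments that led in the same mouse. Heavy V segments had 3 to 17 counts and kappa V segments 2 to 66 counts in a rhodamine-positive library. Of 53 heavy V counts, 4 (7.55%) fell on the 10 segments most counted in the rhodamine-negative library of the same mouse, and of 122 kappa V counts, 22 (18.03%) did. Against the rhodamine-negative libraries of the other mice the shares were 16.6% and 24.1%. The difference between own and other mice was not tested. Mouse 4, with 66 kappa V counts, had Igkv8-24 as its most counted segment in the rhodamine-positive sort (23 counts) and Igkv8-30 in the rhodamine-negative sort (176 counts).

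The D and J segments, which are short, had few counts. The 20 heavy D rows had 0 counts in rhodamine-positive and 2 in rhodamine-negative libraries. The 4 heavy J rows had 33 counts over the rhodamine-positive and 76 over the rhodamine-negative libraries, a smaller difference than that of the V segments, and 0 of the 11 D and J rows with a count was called by edgeR, 0 at an unadjusted p under 0.05 and 0 by DESeq2.

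**Figure D3:**
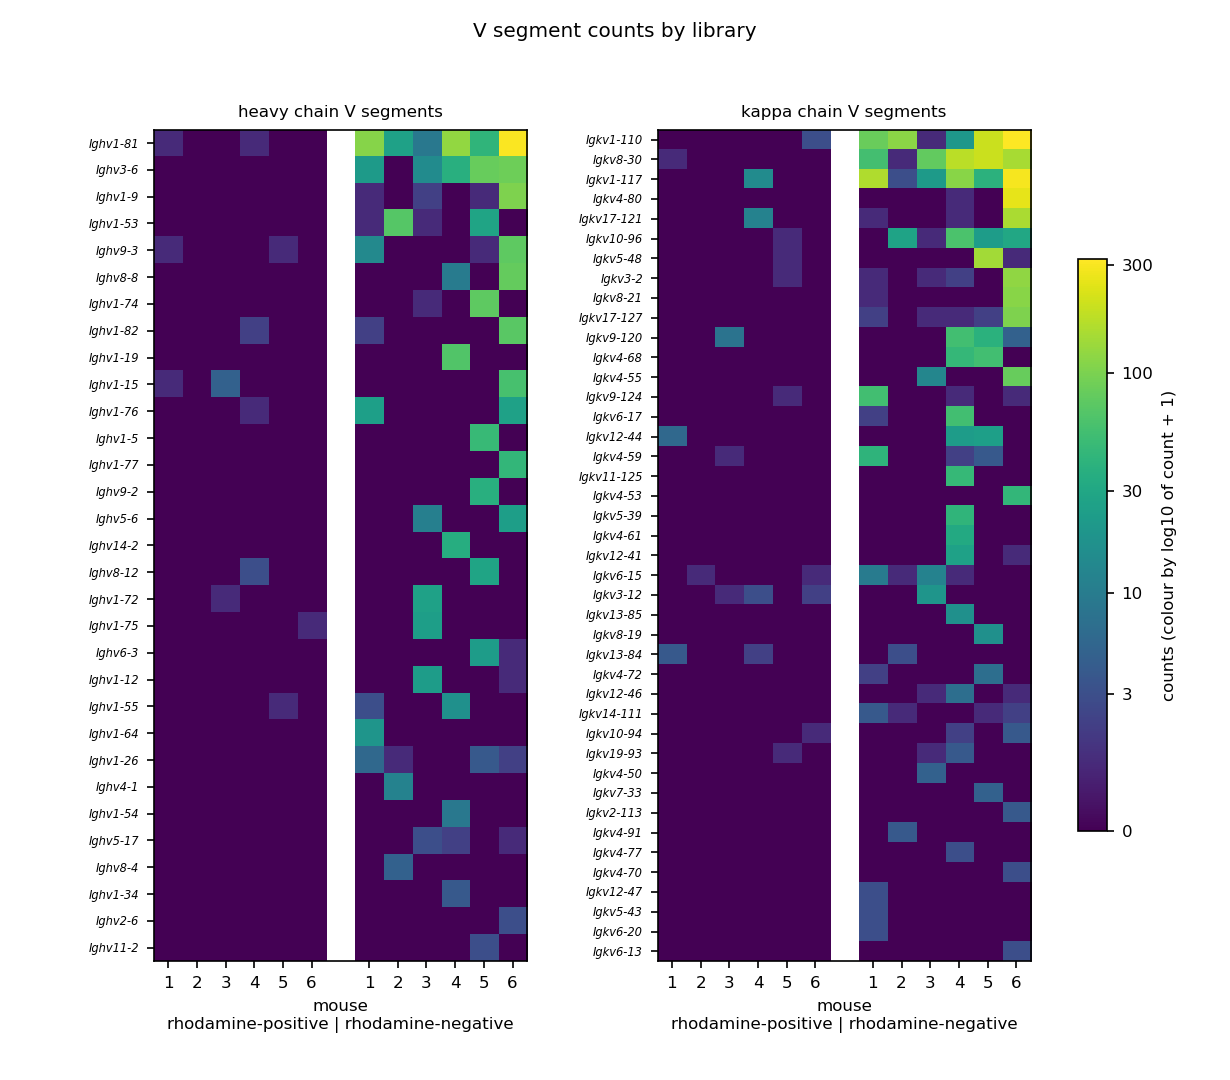
Counts of each heavy (left) and kappa (right) V segment with at least 3 counts in some rhodamine-negative library, coloured on a logarithmic scale, with rhodamine-positive columns left of rhodamine-negative columns in each panel. Most rows are bright in 1 or a few rhodamine-negative mice, as for Igkv4-80 in mouse 6, and nearly dark in the rhodamine-positive columns.

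Among rhodamine-negative sorts, the summed immunoglobulin level was 480 and 947 CPM in the 2 female mice and 297 to 534 CPM in the 4 male mice, a difference of mean log2 values, female minus male, of 0.79. Without Ighm and Ighd the values were 352 and 722 CPM in females and 106 to 299 CPM in males, which did not overlap. The difference was then 1.45. With 2 against 4 mice an exact two-sided permutation test cannot go below 0.0667, and no p is given for a sum over the chosen genes. Leaving out mouse 6 lowered the difference of the whole sum to 0.30.

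Over the 6 rhodamine-negative libraries the immunoglobulin sum followed Jchain, with a Pearson r of 0.935 and a Spearman rho of 0.771 on log2(CPM + 1). Without mice 3 and 6, the farthest from the median of Jchain, r was 0.806. The r with summed B cell markers was 0.321 (rho 0.429), with plasma cell markers 0.432 (rho -0.0857), with plasmacytoid dendritic cell markers 0.615 (rho 0.543) and with T cell markers 0.013 (rho -0.20). Without the 2 farthest libraries these r were 0.631, -0.773, 0.883 and -0.0343. The plasma cell relation changed sign without mouse 6 and rested on that mouse. In rhodamine-negative libraries the plasma cell sum averaged 869.7 CPM, of which Xbp1 had 341.6 and Tent5c 239.6 CPM. Pou2af1 and Tnfrsf17 had 0.898 and 0.708 CPM there. The plasmacytoid dendritic cell sum averaged 1043 CPM, of which Siglech had 352.5, Bst2 268.1 and Irf7 263.0 CPM. The B cell sum averaged 42.84 CPM, of which Cd79b had 23.53 and Bank1 11.69 CPM. The T cell sum averaged 26.78 CPM, of which Il7r had 16.7 and Cd4 4.692 CPM. The r with each of these marker sums therefore turned on a few abundant genes, and relations with the scarcer markers were not tested. These 5 relations are descriptions of 6 libraries that share a sort and carry the same batch label. In the same libraries Jchain stood at 11.03 to 18.51 counts per 100 Igha counts (mean 15.4 ± 2.90, SD, n = 6), a narrower range than that of either gene.

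Outside the chosen genes, 13765 genes had a mean of at least 20 counts in rhodamine-negative libraries. Those closest to the immunoglobulin sum across the 6 libraries were Bard1 (r = 0.977), Tlr3 (0.971), Isoc2a (0.97), Naaa (0.969), Mir142hg (0.968), Ly6i (0.961), Ctnnbl1 (0.959), Asb13 (0.959), Mrps5 (0.957) and Cyp4f17 (0.956). No B cell or plasma cell marker was among them. With Ighm and Ighd left out of the sum, the closest were Nmi (0.995), Gm47248 (0.99), Gbp7 (0.989), Oas1a (0.98), Epsti1 (0.977), Cyp4f17 (0.976), Mov10 (0.975), Shmt2 (0.975), Flt3l (0.973) and Ly6a (0.972). Gbp7, Oas1a, Nmi and Epsti1 are interferon-induced genes. Of the 13765 genes, 12 reached 0.95 against the whole sum and 25 against the sum without Ighm and Ighd. With 6 points and so many genes, some high r values can arise by chance, and how many would was not tested.

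B cell markers did not separate the sorts in the way that Igha and Jchain did. Over all genes tested, 5.37% were called higher and 6.84% lower. Neither this list nor those below were tested against these shares. Of 13 B cell markers, 0 were called higher (1 at an unadjusted p under 0.05, 0 by DESeq2) and 2 lower in rhodamine-positive sorts by edgeR, and their sum was 37.5 to 58.5 CPM in rhodamine-positive and 28.8 to 56.8 CPM in rhodamine-negative libraries. Most of that sum was Cd79b and Bank1. Tnfrsf13c, the BAFF receptor, fell with a log2 difference of -2.34 (standard error 0.49, edgeR adjusted p = 5.18e-05), and Fcrla, an intracellular Fc receptor-like protein, with -2.33 (standard error 0.75, adjusted p = 0.0185). The defining gene Ms4a1 (CD20) was near 0 in the rhodamine-positive libraries of mice 2, 5 and 6 and present in those of mice 1, 3 and 4. It had 15, 0, 9, 27, 2 and 1 counts in the rhodamine-positive libraries of mice 1 to 6, against 8, 3, 18, 15, 3 and 7 counts in their rhodamine-negative libraries. Pax5 had 0 to 6 counts in each library of either sort.

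Among the rhodamine-positive libraries, those of mice 1, 3 and 4 had the most Ms4a1 and also the most kappa chain counts, which were 78, 3, 47, 172, 13 and 23 in mice 1 to 6. Ms4a1 was picked for this after its values were seen, and the most abundant B cell markers did not share the order. Cd79b, a chain of the B cell receptor, had 387, 332, 330, 275, 577 and 505 counts in the rhodamine-positive libraries of mice 1 to 6. Bank1, a B cell scaffold protein, had 125, 249, 118, 181, 144 and 213 counts in them. Tnfrsf13c had 17, 1, 9, 0, 4 and 8 counts, with 0 in mouse 4. The part of B cells in the sorted samples was not tested.

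Plasma cell markers were mixed. Of 12, 2 were called higher and 4 lower in rhodamine-positive sorts, beside 5.37% and 6.84% of all genes. Pou2af1, a lymphoid coactivator of immunoglobulin transcription, had 0, 0, 0, 5, 0 and 0 counts in the rhodamine-positive libraries of mice 1 to 6, against 12, 8, 5, 21, 6 and 34 counts in their rhodamine-negative libraries. It fell by 4.36 on the log2 scale (standard error 0.93, edgeR adjusted p = 6.09e-05). Slamf7, a surface receptor, was lower with a log2 difference of -1.68 (adjusted p = 5.27e-37), and Irf4, a transcription factor of plasma and myeloid cells, with -1.65 (adjusted p = 3.09e-16). Creld2, an endoplasmic reticulum stress protein, was higher, with 0.45 (adjusted p = 0.000538). Sdc1 (CD138) was also lower, with 20 to 75 counts in 5 of the rhodamine-negative libraries and 15 in that of mouse 4, and 0 to 44 counts in rhodamine-positive libraries. Tnfrsf17 (BCMA), which marks plasma cells, had 5 to 15 counts in rhodamine-positive and 3 to 23 counts in rhodamine-negative libraries and was not called.

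**Figure D4:**
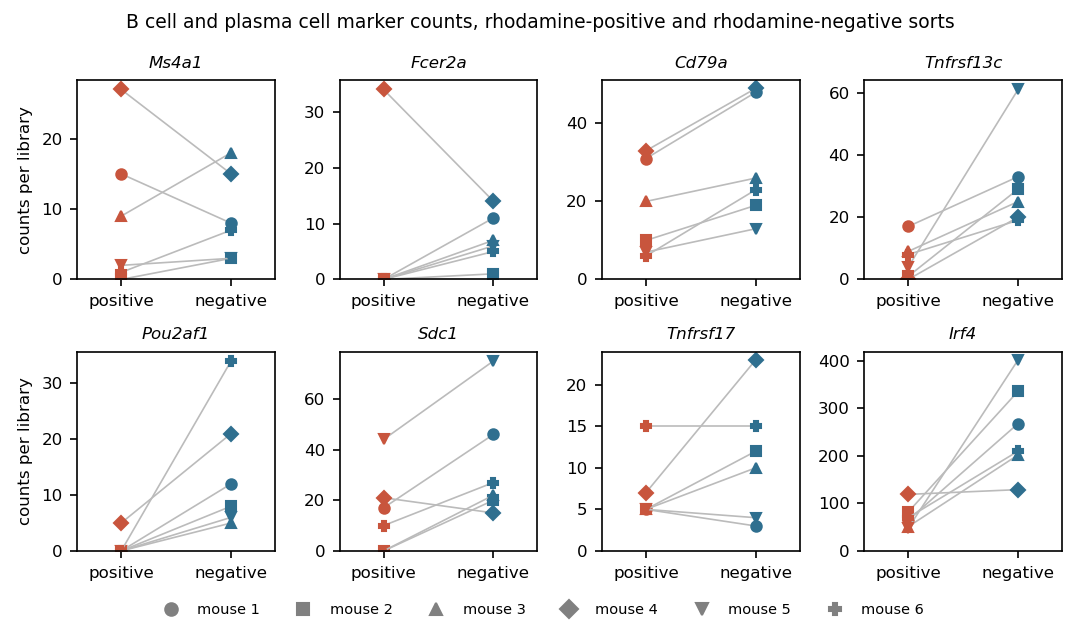
Counts of 8 B cell and plasma cell markers in each library, with rhodamine-positive left of rhodamine-negative in every panel, lines joining the sorts of a mouse and separate vertical axes. Ms4a1 and Fcer2a are highest in the rhodamine-positive library of mouse 4, whereas Pou2af1 is higher in the rhodamine-negative library of every mouse.

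Markers of T cells and plasmacytoid dendritic cells gave small or mixed values. How many of these cells passed the CD45+, CD11b+ and Ly6C- gate was not tested. Of 12 T cell markers, 1 was called higher and 2 lower in rhodamine-positive sorts. Trbc2, a T cell receptor constant region, had 0 counts in every rhodamine-positive and 2 to 7 counts in every rhodamine-negative library. Cd4, which myeloid cells also express, was higher with a log2 difference of 0.91 (edgeR adjusted p = 0.000381), and Il7r, the interleukin-7 receptor, lower with -1.12 (adjusted p = 1.38e-08). Of 12 plasmacytoid dendritic cell markers, 2 were called higher and 4 lower. Runx2 and Spib, transcription factors, were lower with log2 differences of -1.62 (adjusted p = 4.79e-12) and -1.66 (adjusted p = 2.5e-09), as was the chemokine receptor Ccr9, with -2.43 (adjusted p = 8.74e-10). Bst2 was higher, with 0.43 (adjusted p = 0.000622). Siglech, also a microglial gene, was not called, with 3019 to 6614 counts in rhodamine-positive and 2056 to 10069 counts in rhodamine-negative libraries. Of 10 macrophage markers, 7 were called higher and 1 lower, and 3 and 1 without the mouse block. Whether any of these cells carried the immunoglobulin reads was not tested.

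Several genes that bind antibody were higher in the rhodamine-positive sorts. Of 15 immunoglobulin receptors and carriers, 5 were called higher and 2 lower in rhodamine-positive sorts. Among all genes, 5.37% were called higher and 6.84% lower. Cd5l, a macrophage protein that travels in blood bound to IgM, had 340 to 1428 counts in rhodamine-positive libraries (median 918), against 106 to 397 counts in rhodamine-negative libraries (median 339.5). It was higher with a log2 difference of 1.76 (standard error 0.13, edgeR adjusted p = 1.46e-40). Fcer1g, the shared signalling chain of Fc receptors, and Fcgr3, a low-affinity IgG receptor, were higher with log2 differences of 0.59 (adjusted p = 1.08e-07) and 0.46 (adjusted p = 9.57e-05). Fcer1a, the ligand-binding chain of the high-affinity IgE receptor, had 10 counts in the rhodamine-positive library of mouse 5 and 0 in the others, against 6 to 114 counts in rhodamine-negative libraries. It fell by 5.07 on the log2 scale (standard error 0.62, adjusted p = 3.71e-14). Pigr, the epithelial carrier of polymeric IgA, had 1 count over the rhodamine-positive and 5 over the rhodamine-negative libraries.

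Of 17 genes of B cell receptor signalling, 3 were called higher and 3 lower, and 1 was called higher when counts were scaled by library size alone. Cd22, an inhibitory lectin, was higher with a log2 difference of 0.96 (edgeR adjusted p = 3.21e-15). Malt1, a protease that acts in NF-kappaB activation, was lower with -1.42 (adjusted p = 2.44e-29), as was the kinase Syk, with -0.46 (adjusted p = 0.000321). Cd79a, the partner of membrane IgM, had 6 to 33 counts in rhodamine-positive and 13 to 49 counts in rhodamine-negative libraries and was not called.

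Of 20 folding and secretion genes, which plasma cells share with every secreting cell, 12 were called higher and 2 lower in rhodamine-positive sorts. With library size alone 8 were called higher and 3 lower, and without the mouse block edgeR called 8 higher and 0 lower (2 lower at an unadjusted p under 0.05, and 2 by DESeq2 with the block). Their median log2 difference was 0.36, beside -0.32 over all genes tested and -0.02 over the genes left by the filter on low counts. Calr, a chaperone, was higher with 0.68 (edgeR adjusted p = 1.15e-09), Pdia4 with 0.62 (adjusted p = 1.02e-07), Pdia6 with 0.56 (adjusted p = 1.2e-06) and Pdia3 with 0.53 (adjusted p = 2.59e-06), the last 3 being disulphide isomerases. Derl3, of the degradation pathway, was not called. Of 13 genes of recombination and class switching, 0 were called in either direction by edgeR, 0 at an unadjusted p under 0.05 and 0 by DESeq2. Rag1, the recombinase, had 21 counts in the rhodamine-positive library of mouse 2 and 1 count over the other 11 libraries.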

How the data were processed

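RNA from paired rhodamine-positive and rhodamine-negative sorts of 6 mice was sequenced after polyA selection on an Illumina HiSeq, per the labels. The deposited whole-number counts per gene were made by the authors with bcl2fastq 2.17, cutadapt, HISAT2 2.1.0 and featureCounts 1.4.4 on mm10, per the submitters' processing notes, and the strand setting is not given in the sources used here. A deposited log2 expression table of the authors covered 10605 genes and 32 of the chosen rows, and was used for 1 gene. The 12 library files held the same counts as the table.

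Genes with a count in any library (35308) were fitted with edgeR 4.0.16 (R 4.3.3, quasi-likelihood test, TMM scaling, mouse as a block, Benjamini-Hochberg threshold 0.05), with no filter on low counts. CPM values are counts per 1000000 of the TMM-scaled library total. On simulated data with 200 changed genes among 33414, the fit called 94% of those changed by -3 and 58% of those changed by -1 on the log2 scale. Of the 157 genes called, 5 had not been changed. Recovery was not broken down by count level, so it cannot be applied to V segments with few reads. Alternatives were a filterByExpr filter (minimum count 10), DESeq2 1.42.0, other scalings, no block and each mouse left out. Both sorts of a number come from one animal, per the series text, and their deviations from the group means correlated at 0.0987 to 0.537. Nothing beyond the mouse was replicated. With the block, p-values compare the 2 sorts within a mouse, but their error is drawn largely from a variance shared across genes. Standard errors were 0.1 for Csf1r, Xbp1 and Hspa5 alike. The standard errors and p-values therefore do not measure how the difference of a single gene varied among 6 mice. Coordinates and sequences come from GENCODE vM21.

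The members and the gene lists were chosen with earlier results of these data known. Genes named are the constant region genes, Jchain and Mzb1, the 10 V segments with most counts, the leading heavy and kappa V segment of each rhodamine-negative library, the 10 genes most like the immunoglobulin sum, and up to 4 called genes of each list by smallest p. Other genes named (among them Ms4a1, Fcer2a, Sdc1 and Rag1) were chosen after their values were seen. Some genes of the lists count in the totals and are not reported here by name.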

Additional observations from a re-analysis of the deposited data

Results flagged for a closer look

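In each group of 6 libraries, the highest or lowest library was compared with its nearest neighbour, and a gap above Dixon's 95% critical value, as a share of the whole range, drew attention. Of 46 groups of values with at least 18 counts, 15 had such a library, where chance alone flags about 1 in 20 groups. The values overlap, since the sums contain the genes.

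Mouse 6 stood above the other 5 rhodamine-negative libraries in several members. Its sum of all immunoglobulin was 947 CPM where the others had 297 to 534 CPM, its constant region sum was 790 CPM where they had 271 to 462 CPM, and its heavy V sum was 52.7 CPM where they had 7.22 to 24.2 CPM. Mzb1 was 8.28 CPM there, against 0.657 to 3.21 CPM in the others. Igkv4-80 at 14.96 CPM and Igkv17-121 at 8.93 CPM were near 0 in the other rhodamine-negative libraries. In the rhodamine-positive sort the same mouse had Ighg2b at 1.51 CPM and summed Ighg genes at 3.42 CPM, above 0.28 and 1.24 CPM in the next highest libraries.

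Mouse 4 stood apart in the rhodamine-positive sort, with Ighd at 6.84 CPM, Iglc3 at 1.09 CPM, kappa V segments at 4.80 CPM and immunoglobulin without Ighm and Ighd at 19.8 CPM. In the rhodamine-negative sort it had 9.65 CPM of Ighg2c, where the others had 0.191 to 2.42 CPM. Mouse 2 had 8.36 CPM of Iglc2 in the rhodamine-negative sort, where the others had 0.45 to 1.77 CPM. Mouse 5 had 8.97 CPM of Igkv5-48 in the rhodamine-negative sort, where the others had at most 0.0591 CPM.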

How the results depend on the processing

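Of 114 recomputed values, 94 kept their direction and their side of the threshold, or moved by less than the spread between mice. The number of immunoglobulin genes called lower in rhodamine-positive sorts was 31, and 38 with no replicate block. It was 14 with DESeq2 and 5 after the filterByExpr filter, which left 7 immunoglobulin genes to test, and 21 to 31 with 1 mouse left out. With no block, 2 of 15 immunoglobulin receptors, 8 of 20 folding genes, 3 of 10 macrophage markers, 1 of 17 B cell receptor signalling genes and 0 of 12 each of plasma cell, plasmacytoid dendritic cell and T cell markers were called higher by edgeR. The last 3 lists had 2, 2 and 1 higher at an unadjusted p under 0.05, and 2, 2 and 1 by DESeq2 with the block. Among constant region genes, Ighm and Iglc3 were not called without the block, Ighg2c by DESeq2 and Iglc2 after the filter. No immunoglobulin gene was called higher under any of these settings. The fitted log2 difference of Jchain, -7.40, was -9.01 with DESeq2 and -9.79 to -7.06 with 1 mouse left out, the first of these without mouse 2. The cause of the DESeq2 values was not tested. The log2 ratio of the immunoglobulin sum, -1.68, was -5.27 without Ighm and Ighd, chosen after seeing the data. Library size alone moved the median difference of all genes by -0.16, and no direction of a constant region gene changed with it. Ighg1 changed sign without the block (0.37). The correlation with Jchain was 0.928 over constant region genes, 0.961 on linear CPM, 0.955 without Ighm and Ighd, and 0.907 to 0.977 with 1 mouse left out. In these 9 settings it lost its side of the adjusted threshold of 0.05, which it kept with library size alone (0.935). The correlation with T cell markers turned to -0.0431 over constant region genes and -0.0653 on linear CPM, and ran from -0.121 to 0.346 with 1 mouse left out. That with plasma cell markers ran from -0.653 to 0.739. The difference between sexes ran from 0.30 to 1.28 with 1 mouse left out and was 1.45 without Ighm and Ighd. Depth was similar in both sorts, and calls of V segments rest on few reads.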
